A study of Mus musculus with 16 samples.

Results

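Newborn excitatory neurons of the embryonic mouse forebrain, the cells in which Neurod1 RNA is known to peak, were picked from a pool of single cells by 3 conditions on their counts. A cell was taken when it held at least 2 unique molecular identifiers (UMIs, the tags that count RNA molecules) of Neurod1, no fewer Neurod1 than Eomes UMIs, and at most 2 UMIs summed over 10 genes of mitosis and the G2 phase. These conditions were met by 767 of 5777 cells, a share of 13.3% with an exact Clopper-Pearson 95% interval of 12.4 to 14.2. All cells came from forebrain of CD1 embryos, an outbred mouse strain, of wild type genotype at embryonic day 15.5. No treatment, mutant, sex or number of embryos is given for them. The 16 samples all carry these labels, which makes them 1 group, and the matrix of their counts is a single one that names no sample for any cell. The values below are therefore sums over cells of 1 pool, their intervals cover counting error alone, and no test across embryos can be made.

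In the cortex of the embryo, radial glia line the ventricle and divide to give intermediate progenitors, which carry the T-box factor Eomes (Tbr2). Intermediate progenitors leave the cycle and become neurons that first stay multipolar in the subventricular and intermediate zones, then turn bipolar and climb to the cortical plate. Neurod1 is a basic helix-loop-helix (bHLH) factor that binds E-box DNA and is switched on as cells pass from the Eomes state to the neuron. It is later replaced by its relatives Neurod2 and Neurod6, which stay on in maturing excitatory neurons.

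The newborn neurons were set beside 3 other groups drawn from the same matrix by rules that share no cell with each other. Intermediate progenitors, 650 cells, held at least 2 Eomes UMIs and more Eomes than Neurod1. Later neurons, 1070 cells, held no Neurod1 or Eomes UMI, at least 3 UMIs of Neurod2 and Neurod6, and at most 1 UMI over 6 interneuron genes. Radial glia, 177 cells, held at least 4 UMIs over Pax6, Sox2, Hes1 and Hes5, no Eomes or Neurod1, and at most 1 UMI of ventral forebrain genes. All 3 had at most 2 cycle UMIs. Since counts of the same cells drew these groups, every ratio between them is a description and carries no p-value. UMIs were summed over a group and scaled to a total of 1000000, giving CPM, and a gene is called higher or lower where the ratio is at least 1.5-fold. CPM is not per length, so levels are compared between cells and not between genes.

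The median newborn neuron held 1937 genes and 3711 UMIs, and depth ran from 1158 to 14365 UMIs per cell. Intermediate progenitors had a median of 3062 UMIs, later neurons 3957 and radial glia 3020. The matrix falls into 2 runs of cells that stand apart in their Y-linked UMIs and in 11 genes out of alphabetical order, and whether they are batches is not given. The first run of 3651 cells held 405 newborn neurons (11.1%), the second of 2122 cells 361 (17.0%), and 1 lay among 4 cells between them. Summed over 14 interneuron markers, the newborn neurons held 649 CPM in the first run and 196 CPM in the second. Interneuron-like cells, with at least 5 UMIs of 6 interneuron genes and no Neurod2 or Neurod6 UMI, were 19.2% of all cells of run 1 and 4.71% of those of run 2. Values by run are given beside the results that turn on them. Cell names are serial numbers, so barcodes shared by libraries could not be counted.

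Neurod1 itself varied widely among the members, within what the rule allows. The counts ran from 2 to 48 UMIs with a median of 4. Exactly 2 UMIs were found in 194 cells, 3 or 4 in 224, 5 to 9 in 220 and at least 10 in 129. The 77 cells with the most Neurod1 held 33.6% of the members' Neurod1 UMIs. The members together held 4802 of the 6815 Neurod1 UMIs of the matrix, or 70.5%. No Eomes UMI was present in 482 members, while 285 had at least 1, 66 at least 5, and the highest count was 19. In 44 members the Neurod1 and Eomes counts were equal. Cycle UMIs were absent in 596 members, with 1 in 126 and 2 in 45. The cycle limit left out 91 further cells with enough Neurod1, of which 18 had exactly 3 cycle UMIs, and the Eomes condition left out 199 cells.

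**Figure D1:**
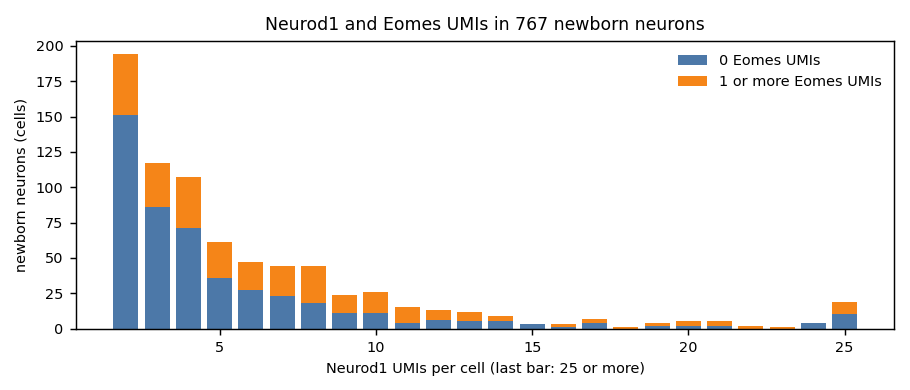
Number of newborn neurons (cells, vertical axis) by Neurod1 UMIs per cell (horizontal axis, last bar 25 or more), split into the 482 cells without and the 285 cells with an Eomes UMI. The counts begin at the limit of 2 UMIs, where 194 cells lie, and 129 cells reach 10 or more.

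At the Neurod1 limit the 194 members with 2 UMIs can be read beside the 363 cells with 1 UMI that passed the other conditions. Their median depths were close, 3406 and 3589 UMIs. Slc17a6 stood at 132 CPM inside and 59.6 CPM outside, Nhlh1 at 78.5 and 25.7, Unc5d at 182 and 141, and Sema3c at 136 and 81.3. All 4 values were smaller outside, yet above those of the later neurons. The neuronal tubulin-binding gene Dcx was alike on both sides, at 1929.9 and 1955 CPM.

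Besides Neurod1, the markers listed for these cells are Slc17a6, Unc5d, Nhlh1 and Tac2. The rule did not use them, but they were chosen with earlier results of these data known. Slc17a6 encodes VGLUT2, a vesicular glutamate transporter. Unc5d is a netrin and FLRT receptor of multipolar cells, Nhlh1 a neuronal bHLH factor, and Tac2 the precursor of the tachykinin neurokinin B. All 4 were higher in the newborn neurons than in the later neurons, where 9.14% of 9700 measured genes were higher. Over the intermediate progenitors, where 10.4% of 9401 genes were higher, this held for Unc5d alone. The difference from the later neurons is not independent of how the markers were chosen, and 3 of the 4 do not part the newborn neurons from the progenitors.

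Neurod1, at chr2:79452521-79456751, minus strand of mm10, stood at 412 CPM in intermediate progenitors and 1465 CPM in newborn neurons. It is at 0 in radial glia and later neurons by the rule. Unc5d, at chr8:28646717-29219636, minus strand, went from 18.0 CPM in radial glia to 123, 270.3 and 61.7 CPM in intermediate progenitors, newborn and later neurons. It was 2.20-fold higher (1.92 to 2.53) in newborn neurons than in progenitors and 4.38-fold higher (3.82 to 5.04) than in later neurons, and the 2 runs gave 229 and 318 CPM. The newborn level lay above both neighbours in each run.

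Slc17a6, at chr7:51622006-51671119, plus strand, stood at 8.99, 211, 203 and 37.2 CPM in the same order, with 193 and 213 CPM in newborn neurons of the 2 runs. Its ratio to the progenitors was 0.959 (interval 0.852 to 1.08), so these neighbours do not differ beyond counting error, and it was 5.45-fold higher (4.59 to 6.52) than in later neurons. Nhlh1, at chr1:172052292-172057573, minus strand, stood at 115 CPM in progenitors, 131 in newborn and 17.3 in later neurons, 7.57-fold higher (5.91 to 9.81) in the newborn cells, with 128 and 136 CPM in the runs. The interval of its ratio to the progenitors, 0.977 to 1.34, includes 1.

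Tac2, at chr10:127724478-127731768, plus strand, was a marker of few cells. Its 138 UMIs lay in 35 of the 767 newborn neurons, and 68.1% of them in the 10 cells with the most. The level was 7.44 CPM in the first run and 81.9 CPM in the second. In intermediate progenitors the runs differed likewise, with 3.29 and 63.0 CPM. Pooled, Tac2 stood at 30.9, 42.1 and 0.924 CPM in progenitors, newborn and later neurons, and was 45.6-fold higher (17.4 to 169.6) in newborn than in later neurons. With groups drawn on a random 50% of the UMIs and values taken from the others, that log2 ratio was 4.58 in place of 5.51.

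With every cell thinned to 1000 UMIs, Neurod1 was detected in 73.3% of newborn neurons, Unc5d in 22.7%, Slc17a6 in 19.3%, Nhlh1 in 11.9% and Tac2 in 2.61%. Without thinning the 4 markers outside the rule were found in 48.2%, 43.7%, 29.9% and 4.56%. In 803 interneuron-like cells, which should lack these genes and had a median depth of 2575 UMIs, the thinned shares were 2.49% for Neurod1, 1.74% for Unc5d, 1.62% for Slc17a6, 0.125% for Nhlh1 and 0.249% for Tac2. The absence of Neurod2 and Neurod6 by rule can lower these shares. Among all 1388 cells with at least 5 UMIs of the interneuron genes, whatever their Neurod2 and Neurod6, a group chosen after seeing the data that holds 44 of the members, the median depth was 2780 UMIs. The thinned shares there were 2.38% for Unc5d, 3.03% for Slc17a6, 0.504% for Nhlh1 and 0.288% for Tac2. The shares of these 4 genes in newborn neurons were above both backgrounds, and that of Neurod1 was set by the rule.

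**Figure D2:**
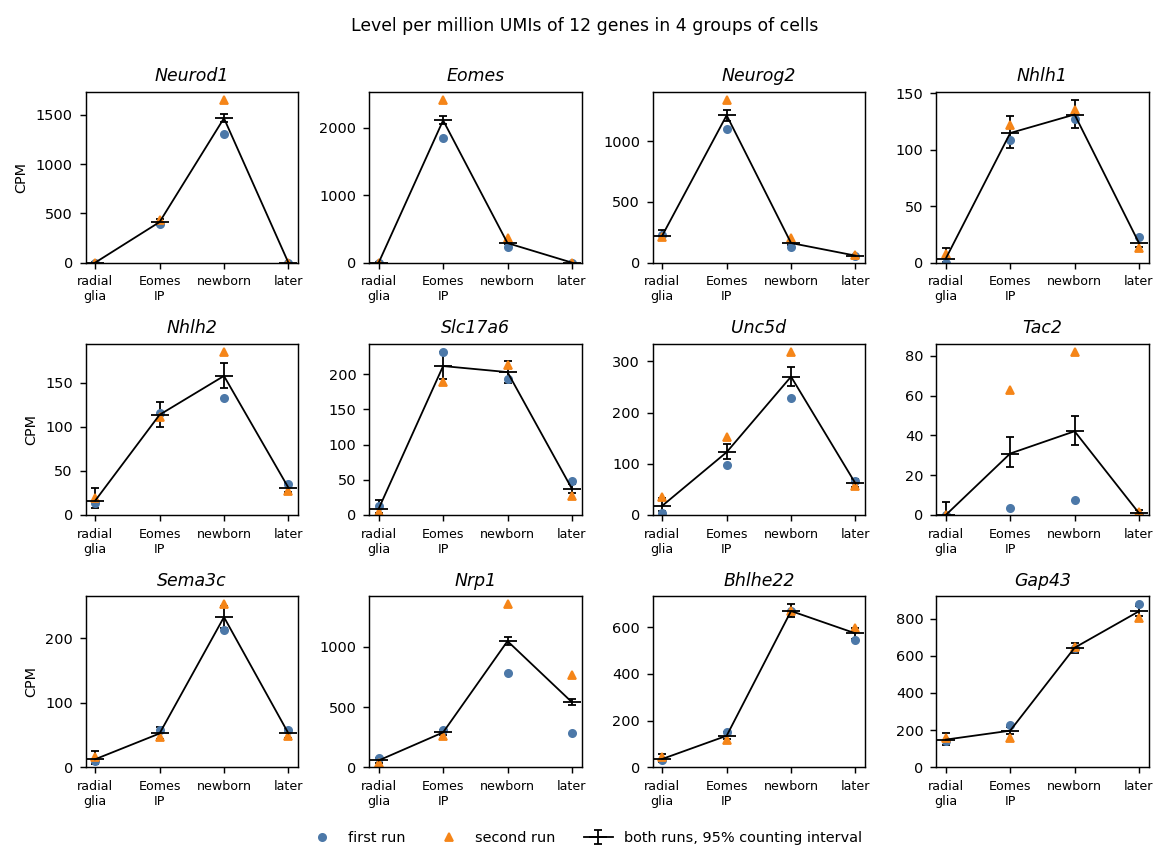
CPM (vertical axis) of 12 genes in radial glia, Eomes intermediate progenitors (IP), newborn and later neurons, as the sum over both runs with its 95% counting interval (black) and in the first (circle) and second run (triangle). Sema3c peaked in newborn neurons at 233 CPM, Slc17a6 was level between progenitors and newborn neurons at 211 and 203 CPM, and Gap43 went on to 839.5 CPM in later neurons.

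All 4 markers outside the rule were highest in the newborn neurons with the most Neurod1, as described further on. In cells of at most 4000 UMIs the calls of Nhlh1 and Unc5d did not hold, and Tac2 was too sparse to be measured. Promoter sequences are shown for Nhlh1, Slc17a6 and Tac2, as no window was at hand for Unc5d. Each sequence is the 250 bases before a RefSeq start on GRCm38.p6, the release that mm10 names, 5′ to 3′ on the gene's strand. Slc17a6 has 2 starts in that table, and the second window lies inside the gene. None overlaps an annotated exon. Capitals mark E-box words, CANNTG, which read the same on both strands in their fixed letters.
Nhlh1, chr1:172057597-172057846, minus strand: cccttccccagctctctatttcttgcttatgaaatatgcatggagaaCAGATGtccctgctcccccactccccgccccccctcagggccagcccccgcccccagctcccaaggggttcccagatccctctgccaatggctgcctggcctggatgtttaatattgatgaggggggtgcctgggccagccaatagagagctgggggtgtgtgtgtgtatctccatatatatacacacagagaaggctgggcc
Slc17a6 first window, chr7:51621580-51621829, plus strand: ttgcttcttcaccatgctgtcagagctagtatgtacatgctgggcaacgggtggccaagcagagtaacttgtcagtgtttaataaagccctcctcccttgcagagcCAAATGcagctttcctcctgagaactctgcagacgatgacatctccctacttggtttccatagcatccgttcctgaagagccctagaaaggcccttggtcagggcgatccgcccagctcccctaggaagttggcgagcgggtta
Slc17a6 second window, chr7:51624387-51624636, plus strand: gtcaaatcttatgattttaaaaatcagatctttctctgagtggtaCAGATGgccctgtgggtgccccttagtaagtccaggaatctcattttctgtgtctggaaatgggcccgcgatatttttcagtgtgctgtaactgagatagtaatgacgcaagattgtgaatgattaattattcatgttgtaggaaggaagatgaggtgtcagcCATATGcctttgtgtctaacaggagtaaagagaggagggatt
Tac2, chr10:127724228-127724477, plus strand: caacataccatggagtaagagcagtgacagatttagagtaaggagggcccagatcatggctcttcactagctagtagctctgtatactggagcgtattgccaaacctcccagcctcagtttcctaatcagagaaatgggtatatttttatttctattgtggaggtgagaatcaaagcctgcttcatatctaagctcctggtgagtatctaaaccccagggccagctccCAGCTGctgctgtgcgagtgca
The window of Nhlh1 holds CAGATG, the first of Slc17a6 CAAATG, the second CAGATG and CATATG, and that of Tac2 CAGCTG. Such words are common. CANNTG occurs in 66.2% of all 32851 promoter windows of this length in the table and in 55.9% of the 9431 windows of genes measured against the progenitors. CAGATG or its reverse complement CATCTG occurs in 14.4% and 9.29% of them, and CAGCTG in 4271 of the former and 1071 of the latter windows. A match is a word in the sequence and says nothing of binding.

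Of 19 measured members of the proneural and neuronal bHLH list outside the rule, 4 were higher and 11 lower than in intermediate progenitors. The background is 10.4% of all genes higher and 13.2% lower, and the list median was -0.91 on the log2 scale against -0.07 over all genes. That median was -0.33 in cells of at most 4000 UMIs, -0.44 in the first run and -0.60 with groups drawn on a random 50% of UMIs. The minimum of UMIs per gene was applied again under each of these settings, so the genes behind them can differ. Over the 19 genes measured in the pool, run 1 gave -0.80 and run 2 -1.04. Neurog2, the proneural factor that drives excitatory neurogenesis, stood at 1215 CPM in progenitors, 161 in newborn and 57.5 in later neurons. It was 7.53-fold lower (6.85 to 8.28) than in progenitors and 2.81-fold higher (2.41 to 3.28) than in later neurons. Neurog1, its close relative, was down to 7 UMIs in 4 newborn neurons and 51.5-fold lower (24.6 to 129) than in progenitors. Its log2 ratio of -5.69 was -4.15 with groups drawn on a random 50% of UMIs and -7.19 in the second run.

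The relatives of Neurod1 were split. Neurod2, which with Neurod6 also chose the later neurons, stood at 676 CPM in progenitors, 1272 in newborn and 1503 in later neurons, 1.88-fold higher (1.77 to 1.995) in newborn neurons than in progenitors. Neurod6 stood at 1508, 2268 and 2586 CPM, and was 1.504-fold higher (1.44 to 1.57). Its ratio passed 1.5 by little and missed it in the first run, at a log2 ratio of 0.51, and with groups drawn on a random 50% of UMIs, at 0.52. Neurod4 went the other way, with 103 CPM in progenitors and 16.2 in newborn neurons, in only 26 cells, and with 4.58 and 29.5 CPM in the runs. Bhlhe22, a factor of cortical projection neurons, stood at 135, 669 and 573 CPM and was 4.95-fold higher (4.39 to 5.60) in newborn neurons than in progenitors, with 669.8 and 668 CPM in the runs.

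Nhlh2, the paralog of Nhlh1, stood at 113, 157 and 31.0 CPM and was 5.09-fold higher (4.20 to 6.20) in newborn than in later neurons. The E proteins, with which these factors pair, were Tcf3, Tcf4 and Tcf12. Against later neurons Tcf12 was 2.18-fold higher (1.92 to 2.48), Tcf3 1.73-fold higher (1.496 to 2.01) and Tcf4 1.53-fold higher (1.49 to 1.58). The call of Tcf4 did not hold in cells of at most 4000 UMIs, at a log2 ratio of 0.55, nor with groups drawn on a random 50% of UMIs, at 0.56. Id proteins block E proteins, and their genes did not move together. Id2 was 1.76-fold higher (1.64 to 1.89) in newborn neurons than in progenitors, while Id1 was 6.17-fold lower (3.48 to 11.7) and Id4 2.16-fold lower (1.85 to 2.52).

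Against intermediate progenitors the newborn neurons were lower in many genes of the dividing and Notch-signalling state. Of all genes measured there, 10.4% were higher and 13.2% lower. Of 19 measured S phase genes, 0 were higher and 16 lower, with a list median of -1.12. Cdt1, which licenses replication origins, was 4.92-fold lower (2.72 to 9.42), and Mcm3, a subunit of the replicative helicase, 4.59-fold lower (3.11 to 6.92). The rule on mitotic and G2 genes was the same for both groups and held no gene of this list. With groups drawn on a random 50% of UMIs the log2 ratio of Mcm3 was -3.20 in place of -2.20, and without members that carried an interneuron UMI -3.11. Without those members Cdt1 gave -2.99 in place of -2.30. Among 21 regulators of cell cycle exit and the G1 phase, 2 were higher and 11 lower, the higher count near the share of all genes. Ccnd1, cyclin D1, was 5.40-fold lower (3.92 to 7.57), with a log2 ratio of -2.43 that was -3.31 in the second run. Btg2, an antiproliferative gene of neurogenic divisions, went from 551 to 96.1 CPM, 5.74-fold lower (5.07 to 6.51). Cdk5r1, whose product p35 turns on the kinase Cdk5 in neurons, was 2.02-fold higher (1.89 to 2.17).

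In the Notch pathway 10 of 18 measured genes were lower and 0 higher, beside 13.2% and 10.4% of all genes. By role, the ligand Dll1 was 3.16-fold lower (2.71 to 3.69), the Delta-like Dll3 2.40-fold lower (1.83 to 3.16), and the receptor Notch1 7.01-fold lower (5.57 to 8.91). Notch1 had a log2 ratio of -2.22 in place of -2.81 with groups drawn on a random 50% of UMIs. The Notch target Hes5 went from 374 to 36.6 CPM, 10.2-fold lower (8.42 to 12.5), and its relative Hes1 was 3.75-fold lower (2.76 to 5.16). Mfng, a glycosyltransferase that modifies Notch receptors, was 2.91-fold lower (2.52 to 3.36) than in progenitors and still 7.90-fold higher (5.82 to 10.9) than in later neurons. Of the 19 radial glia markers 17 were lower than in the progenitors and 0 higher, and of 15 measured intermediate progenitor markers 11 were lower and 0 higher. The exceptions included Sstr2, a somatostatin receptor, at 156 and 118 CPM, and Mfap4 at 284 and 198 CPM, which did not reach 1.5-fold.

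Many genes that build the neuron were higher, where 10.4% of all measured genes were higher and 13.2% lower. In the list of the young neuron's cytoskeleton 23 of 34 measured genes were higher than in progenitors and 0 lower, with a median of 0.75. Gap43, a growth cone protein, stood at 197 and 643 CPM, 3.26-fold higher (2.94 to 3.62), with 642 and 646 CPM in the runs. Stmn2, which regulates microtubules in growing axons, was 2.60-fold higher (2.43 to 2.78), and the microtubule-binding Dcx, from the migration list, 1.83-fold higher (1.74 to 1.92). Among genes of glutamate transport and vesicle release 19 of 25 were higher and 1 lower, with a median of 0.98. Slc17a7, the transporter VGLUT1 of mature cortical synapses, was already 3.46-fold higher (1.93 to 6.64), at only 21.4 CPM.

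Cell adhesion genes were higher in 19 of 35 cases and lower in 2, beside 10.4% and 13.2% of all genes. Cntn2 (TAG-1), an adhesion molecule of young axons, stood at 188 and 758 CPM, 4.04-fold higher (3.64 to 4.49), and was higher in the second run than in the first (602 and 937 CPM). Lrrtm1, a synapse organizer, was 3.75-fold higher (2.49 to 5.83). Of 16 measured neurotransmitter receptors 9 were higher and 0 lower, among them the GABA receptor subunit Gabra2 at 3.38-fold higher (2.20 to 5.36) and the glycine receptor subunit Glra2 at 3.05-fold higher (2.16 to 4.39). Of 18 ion channel and chloride transport genes 7 were higher and 1 lower, with Scn3b, a sodium channel subunit, 2.45-fold higher (1.94 to 3.12). The neuropeptides, a short list, gave 2 higher and 0 lower of 10, too few to set apart from the share of all genes. Cck had the largest ratio among them, 6.48-fold higher (3.86 to 11.6).

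Several families of regulators had genes on both sides, against a background of 10.4% of all genes higher and 13.2% lower. The lower counts of chromatin and RNA-binding genes and the higher count of Wnt, TGF-beta and BMP genes are near that background. Of 31 chromatin factors 7 were higher and 4 lower. Dpf1 (BAF45b), a subunit of the neuronal BAF complex, was 2.71-fold higher (2.17 to 3.43), while Chd7, a remodeler of progenitors, was 3.92-fold lower (3.44 to 4.48). Of 23 Sox, Nfi and related factors 7 were higher and 9 lower: Myt1l, which holds neuronal identity, was 2.56-fold higher (2.27 to 2.89), and Sox21 5.42-fold lower (3.85 to 7.77). Of 29 RNA-binding protein genes 11 were higher and 4 lower, with the splicing factor Rbfox1 2.22-fold higher (1.90 to 2.62) and Qk, a factor of glia and progenitors, 2.08-fold lower (1.85 to 2.34). Of 28 Wnt, TGF-beta and BMP genes 3 were higher and 9 lower, with the Wnt receptor gene Fzd8 6.31-fold lower (4.37 to 9.34).

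**Figure D3:**
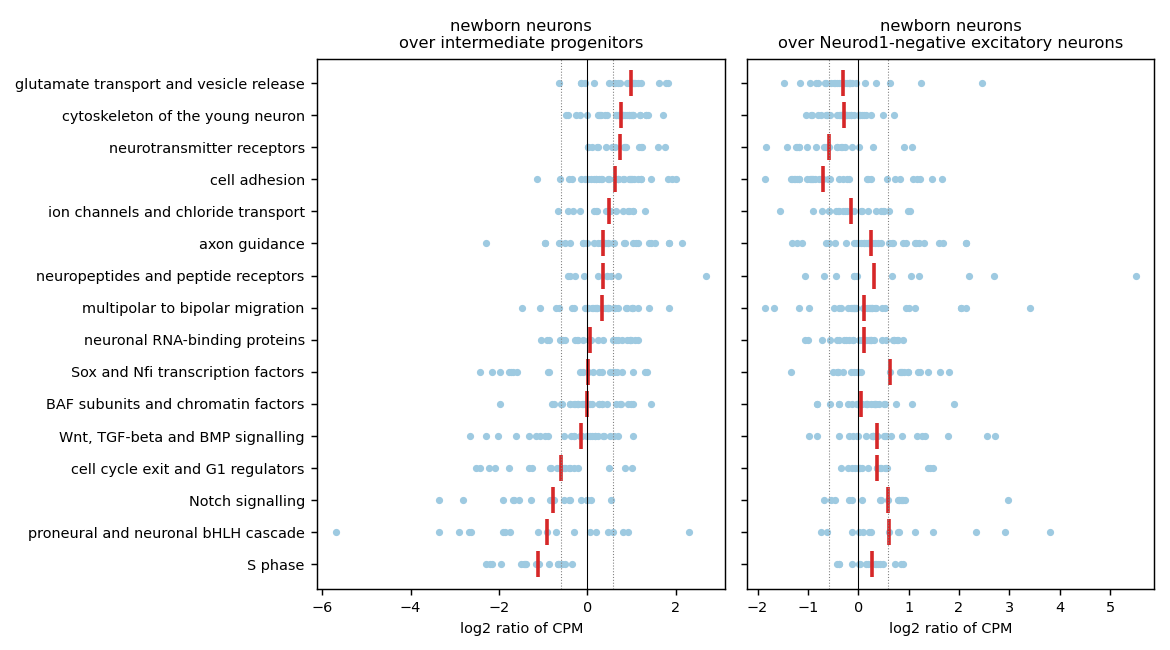
Log2 ratio of CPM (horizontal axis) of newborn neurons over intermediate progenitors (left) and over later neurons (right), for 16 gene lists. Blue points are genes, red bars list medians, and dotted lines the 1.5-fold limits. The median of glutamate transport and vesicle release was 0.98 on the left and -0.31 on the right, and that of the cytoskeleton 0.75 and -0.28.

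Against later neurons the newborn neurons were lower in many genes of adhesion, transmitter reception and the deep layers. Of all genes 9.14% were higher and 7.45% lower. Cell adhesion gave 19 of 35 lower and 7 higher, with a median of -0.69 against 0.03 over all genes. Cdh13, a cadherin, stood at 37.2 CPM against 134 in later neurons, 3.59-fold lower (2.95 to 4.40). The adhesion molecule Chl1, at 369 and 633 CPM, was 1.71-fold lower (1.60 to 1.83). Its level in progenitors was 159 CPM, so the newborn neurons lay between their neighbours. In the second run the call of Chl1 against later neurons did not hold, at a log2 ratio of -0.45. Neurotransmitter receptors gave 10 of 21 lower and 2 higher. Grik3, a kainate receptor subunit, was 3.57-fold lower (2.93 to 4.37), the NMDA receptor subunit Grin2b 2.36-fold lower (2.07 to 2.70) and the metabotropic receptor Grm5 2.68-fold lower (2.04 to 3.55). The log2 ratio of Grin2b in cells of at most 4000 UMIs was -2.44 in place of -1.24.

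The cytoskeleton list gave 8 of 36 lower and 1 higher, and vesicle release 7 of 26 lower and 3 higher. The shares of all genes were 7.45% lower and 9.14% higher. Stmn2 stood at 1241 CPM against 2073, 1.67-fold lower (1.61 to 1.73), and the synaptotagmin Syt4 at 311 against 455, which did not reach 1.5-fold. For Stmn2 the log2 ratio was -1.45 in cells of at most 4000 UMIs in place of -0.74. Gap43 also missed the limit, at 643 and 839.5 CPM. Of 13 deep layer markers 7 were lower and 1 higher. Sox5, a factor of deep layer neurons, stood at 394 and 993 CPM, 2.52-fold lower (2.37 to 2.68). Fezf2, which specifies subcortical projection neurons, was 1.71-fold lower (1.56 to 1.88). Bcl11b (CTIP2) stood at 907 and 1339 CPM, below the limit at 1.48-fold lower (1.41 to 1.54). The exception was Crym, at 12.8 CPM in progenitors, 97.3 in newborn and 51.5 in later neurons.

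Upper layer markers did not share a direction, with 4 of 12 higher and 4 lower, beside 9.14% and 7.45% of all genes. Rorb was 4.89-fold lower (3.67 to 6.65) and Mef2c 3.72-fold lower (3.37 to 4.11), while Lmo4 was 1.65-fold higher (1.52 to 1.79). In cells of at most 4000 UMIs the call of Lmo4 did not hold, at 0.15, and Mef2c gave -2.66 in place of -1.89. The genes with the lowest ratios included Mc4r, a melanocortin receptor, 8.95-fold lower (6.27 to 13.2), Lpl, lipoprotein lipase, 5.86-fold lower (5.08 to 6.79), and Sla 5.76-fold lower (4.96 to 6.71). Sla differed 4.03-fold between runs within the newborn neurons, at 25.2 and 101 CPM, where 5.87% of 8137 genes were higher in the second run. The log2 ratios of Mc4r, Lpl and Sla were -3.16, -2.55 and -2.53. In the first run Mc4r gave -4.27 and Lpl -3.38, in the second -2.11 and -1.94. Cells of at most 4000 UMIs gave, for Lpl, -3.49 and for Sla -3.22. All 3 genes stayed lower in these subsets.

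Genes of the progenitor state were still higher than in later neurons. Later neurons hold no Eomes UMI by rule, while 285 members hold at least 1, so the rules can add to this difference. Of 14 measured intermediate progenitor markers 12 were higher and 0 lower, and in the Notch pathway 9 of 17 were higher and 1 lower. The shares of all genes were 9.14% higher and 7.45% lower. Mfap4, an extracellular matrix protein, stood at 198 CPM against 14.1, 14.1-fold higher (10.8 to 18.6), and Sstr2 at 118 against 18.3, 6.49-fold higher (5.08 to 8.37). Cxcr4, the receptor of the chemokine Cxcl12, was 10.6-fold higher (5.92 to 20.5), and 43.3% of its 104 UMIs lay in 10 cells. Cxcl12 itself was 4.12-fold higher (3.21 to 5.34). Run by run, the log2 ratio of Sstr2 was 2.11 and 3.59 around a pooled 2.70, and in the second run Cxcr4 gave 4.33 in place of 3.40 and Cxcl12 2.88 in place of 2.04. The value of Sstr2 in cells of at most 4000 UMIs was 2.08. Of 23 Sox, Nfi and related factors 12 were higher and 1 lower, among them Sox6 at 3.48-fold higher (2.66 to 4.59). The median of this list was 0.62, but 0.04 in cells of at most 4000 UMIs, 0.07 with groups drawn on a random 50% of UMIs and 0.24 without members that carried an interneuron UMI. The call of Sox1 did not hold without the 264 members that carried an interneuron UMI, at a log2 ratio of 0.49 in place of 1.62. Over all newborn neurons 14 interneuron markers summed to 438 CPM, against 114 CPM in later neurons, whose rule limits 6 of those genes.

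Of 8130 genes measured against both neighbours and with at least 50 UMIs in newborn neurons, 90 were higher in newborn neurons than in both, or 1.11%. Of 34 axon guidance genes so measured these were 5, namely Sema3c, Nrp2, Unc5d, Sema6d and Nrp1. The cell adhesion list gave 4 of 34, Negr1, Pcdh17, Cdh10 and Cdh8. Migration gave 2 of 34, both also guidance genes, vesicle release 2 of 24, and the Wnt, TGF-beta and BMP list 2 of 21. The lists of 14 Notch, 13 bHLH and 33 cytoskeleton genes gave 0, which is near the share of all genes. The property and the examples here were chosen after their values were seen, and both ratios share the newborn cells. Sema3c, a secreted semaphorin, at chr5:17574281-17730268, plus strand, went from 12.6 CPM in radial glia to 52.5 in progenitors, 233 in newborn and 52.9 in later neurons. It was 4.44-fold higher (3.65 to 5.43) than in progenitors and 4.41-fold higher (3.80 to 5.13) than in later neurons, in 312 of 767 cells and with 213 and 253 CPM in the runs. Its thinned share was 18.5% in newborn neurons, 5.38% in progenitors, 4.67% in later neurons and 0.872% in interneuron-like cells. The level in newborn neurons lay above both neighbours in each run.

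The semaphorin co-receptors had the same order. Nrp1, at chr8:128358604-128503363, plus strand, stood at 290.1, 1047 and 541 CPM in progenitors, newborn and later neurons, 3.61-fold higher (3.32 to 3.93) and 1.94-fold higher (1.84 to 2.04) in newborn neurons. It was higher in the second run, with 782 and 1352 CPM in newborn and 284 and 769.7 CPM in later neurons. Nrp2 stood at 80.8, 218 and 67.9 CPM, 2.70-fold higher (2.30 to 3.20) and 3.22-fold higher (2.80 to 3.70). Its log2 ratio to the later neurons was 0.73 in cells of at most 4000 UMIs in place of 1.69, and its ratio to progenitors 2.19 in the second run in place of 1.43. Sema6d, a membrane semaphorin, stood at 41.1, 118 and 53.8 CPM. Pcp4, a calmodulin-binding peptide, stood at 214, 431 and 94.5 CPM, with 450.1 and 409.9 CPM in the runs. As a whole, axon guidance gave 12 of 34 genes higher and 5 lower than progenitors, beside 10.4% and 13.2% of all genes. Against later neurons it gave 13 of 35 higher and 4 lower, beside 9.14% and 7.45%. The counts of lower genes were near these shares. Not all receptors were at least 1.5-fold above both neighbours. Plxna4, at 81.7, 216 and 170.5 CPM, was highest in newborn neurons but missed that limit over later neurons. Robo1, the Slit receptor, rose further in later neurons, at 71.5, 127 and 274 CPM. Epha4, an ephrin receptor, was level between progenitors and newborn neurons at 674 and 629 CPM and 3.03-fold higher (2.80 to 3.28) than in later neurons.

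Of 35 genes of multipolar to bipolar migration 12 were higher and 4 lower than in progenitors, beside 10.4% and 13.2% of all genes. Against later neurons 7 were higher and 4 lower, beside 9.14% and 7.45%. Dab1, the adaptor of Reelin signalling, went from 133 CPM to 202 in newborn and 647 in later neurons, 3.21-fold lower (2.95 to 3.50) in the newborn cells.

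Members with an Eomes UMI differed from those without in the direction of the progenitors. Among 8137 genes 7.16% were higher and 7.19% lower in the 285 members with Eomes. Their median depth was 3450 UMIs, against 3874.5 in the 482 others. Of 14 progenitor markers outside the rule 11 were higher and 0 lower, and of 14 Notch genes 8 were higher and 0 lower. The median of the Notch genes was 0.66, but 0.02 in cells of at most 4000 UMIs. Mfap4 stood at 391 CPM with and 94.0 CPM without Eomes, 4.16-fold higher (3.51 to 4.94). The log2 ratio of Mfap4 was 1.45 in the first run in place of 2.06. Neurog2 stood at 299.8 and 86.5 CPM, 3.46-fold higher (2.89 to 4.17). The growth factor Mdk was 3.08-fold higher (2.75 to 3.45). Slc17a6 was 2.48-fold higher (2.12 to 2.90), at 331 and 134 CPM. Nhlh1 was 1.87-fold higher (1.54 to 2.26), which did not hold in the first run, at a log2 ratio of 0.56, nor in cells of at most 4000 UMIs, at 0.47. Unc5d, at 312 and 248 CPM, did not reach 1.5-fold.

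The members without Eomes had more of the neuron's own genes. The cytoskeleton list gave 9 of 33 lower with Eomes and 1 higher, and vesicle release 8 of 24 lower and 2 higher. Cell adhesion gave 9 of 34 lower and 2 higher. The shares of all genes were 7.19% lower and 7.16% higher. Bhlhe22 stood at 398 CPM with and 815 CPM without Eomes, 2.05-fold lower (1.85 to 2.28). Gap43 stood at 399 and 776 CPM and Syt4 at 150.3 and 397 CPM, 2.64-fold lower (2.24 to 3.13). Nr4a3, an orphan nuclear receptor, was 3.23-fold lower (2.53 to 4.18), and it also differed between the runs, at 98.95 and 234 CPM. Crym was 2.72-fold lower (2.02 to 3.72) and Nrp1 1.68-fold lower (1.55 to 1.82), a call of Nrp1 that did not hold in the first run, at a log2 ratio of -0.14, nor in cells of at most 4000 UMIs, at -0.58.

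The members were also split into tertiles by the share of Neurod1 among each cell's UMIs, a split added after the data were seen. The upper tertile of 256 cells had a median of 9 Neurod1 UMIs, the middle of 255 cells 4 and the lower of 256 cells 2. The Neurod1 levels of 3013, 1249.7 and 523 CPM restate the split. Depth moved with it, with medians of 3344, 3124 and 5078 UMIs: by the rule, the lowest levels can be reached only in deep cells. An Eomes UMI was present in 56.3% of the upper, 32.5% of the middle and 22.7% of the lower tertile. The rule admits no more Eomes than Neurod1 UMIs, so members with few Neurod1 UMIs could hold only few of Eomes. The order of these shares can thus be set in part by the rule. The runs were mixed in each tertile, with 114 cells of the first run in the upper and 153 in the lower.

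All 4 markers outside the rule were higher in the upper than in the lower tertile, where 7.44% of 7316 genes were higher and 8.65% lower. Slc17a6 stood at 311, 245 and 99.2 CPM from upper to lower, 3.14-fold higher (2.56 to 3.87) in the upper. Nhlh1 stood at 218, 137 and 66.9 CPM, 3.26-fold higher (2.54 to 4.20), and Unc5d at 352, 343 and 165 CPM, 2.13-fold higher (1.80 to 2.53). Tac2 stood at 101, 37.2 and 4.31 CPM. In cells of at most 4000 UMIs the log2 ratio was 0.99 for Slc17a6 in place of 1.65. With tertiles drawn on a random 50% of UMIs Nhlh1 gave 1.06. In the shallower cells the calls of Nhlh1 and Unc5d did not hold, at 0.40 and 0.42 in place of 1.70 and 1.09, and Tac2 was too sparse to be measured.

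Several progenitor-linked genes were higher with Neurod1, an order that the rule's limit on Eomes can add to. Mfap4 stood at 401, 182 and 67.6 CPM, 5.93-fold higher (4.72 to 7.51) in the upper tertile, and Neurog2 at 263, 168 and 86.3 CPM. Ezr, which links membrane and actin, stood at 460.2, 255 and 135 CPM, 3.41-fold higher (2.87 to 4.06). Of 12 measured progenitor markers 7 were higher and 0 lower, beside 7.44% and 8.65% of all genes. Hes5 was 1.74-fold lower (1.10 to 2.82) in the upper tertile, but in the first run it lay on the other side, at a log2 ratio of 0.13. The log2 ratio of Mfap4 was 2.57, with 1.87 in cells of at most 4000 UMIs and 1.91 and 3.20 in the runs. That of Neurog2 was 0.89 with tertiles drawn on a random 50% of UMIs in place of 1.61.

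The lower tertile had the higher levels of later genes. Cell adhesion gave 18 of 34 genes lower in the upper tertile and 1 higher, beside 8.65% and 7.44% of all genes. The median of the list was -0.73. That median was -0.24 in cells of at most 4000 UMIs, and with groups drawn on a random 50% of UMIs -0.16. Shtn1 (shootin), a protein of axon formation, stood at 46.2, 113 and 194 CPM from upper to lower, and at 287 CPM in later neurons. Its log2 ratio in cells of at most 4000 UMIs was -1.19 in place of -2.07. Runx1t1, a corepressor, stood at 146, 217 and 516 CPM, 3.54-fold lower (2.95 to 4.27) in the upper tertile, with a log2 ratio of -2.64 in the second run in place of -1.82. Syt4 stood at 173, 245 and 450.0 CPM, 2.61-fold lower (2.20 to 3.11). Bcl11b stood at 524, 923 and 1165 CPM. Mef2c was 2.96-fold lower (2.29 to 3.89), a call that did not hold in cells of at most 4000 UMIs, at a log2 ratio of -0.18.

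Other genes of the neuron were level across the tertiles. Dcx stood at 2016, 2002 and 1911 CPM, Neurod6 at 2108, 2442 and 2266 CPM, and Bhlhe22 at 633, 639.6 and 713 CPM. Their ratios between upper and lower tertile, 1.05, 0.93 and 0.887, were near 1, and all 3 genes lay above their progenitor levels in each tertile. Markers of other cells moved with the tertiles. Interneuron markers summed to 263, 394 and 589 CPM from upper to lower, and all 8 measured ones were lower in the upper tertile. Without members that carried an interneuron UMI the log2 ratio of Syt4 was -1.67 in place of -1.38 and that of Slc17a6 1.69 in place of 1.65.

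**Figure D4:**
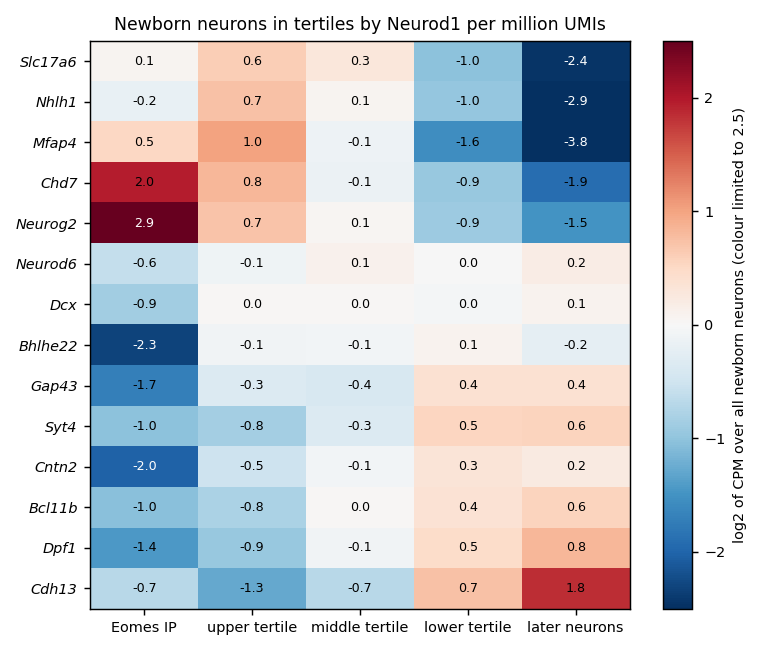
Log2 of CPM in each column over the CPM of all newborn neurons (number, and colour limited to 2.5), for 14 genes (rows) in Eomes intermediate progenitors (IP), the upper, middle and lower tertile of newborn neurons by Neurod1, and later neurons. Slc17a6 ran from 311 CPM in the upper to 99.2 in the lower tertile, Cdh13 from 15.4 to 61.8, and Dcx was level.

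Markers of cells that the rule could have let in were scarce for some types, and for others above their level in later neurons. Over all newborn neurons 9 microglia markers summed to 6.41 CPM, with Csf1r and Trem2 at 0. The 7 markers of meningeal fibroblasts summed to 32.3 CPM, against 4.42 CPM in progenitors and 4.62 CPM in later neurons. Within the newborn neurons these fibroblast markers were uneven, at 58.9 CPM for run 1 and 1.96 CPM for run 2. From upper to lower tertile they summed to 4.11, 2.19 and 71.9 CPM. The markers of Cajal-Retzius cells summed to 258 CPM, against 269 CPM in progenitors and 119 CPM in later neurons. At least 5 interneuron UMIs were found in 44 members. With cells thinned to 1000 UMIs, Gad2, which makes GABA, was found in 3.39% of newborn neurons and 45.5% of interneuron-like cells. The part of these UMIs in the results above was not tested beyond the values given.

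The 2 runs also differed within the newborn neurons, where 5.87% of genes were higher in the second run and 6% lower. Of 4 markers outside the rule 1, Tac2, was higher. Of 9 measured interneuron markers 8 were lower in the second run and 0 higher. The pathway lists were mixed: cell adhesion gave 7 of 34 higher and 3 lower, vesicle release 4 of 24 higher and 0 lower, and neurotransmitter receptors 4 of 15 higher and 0 lower. Nrp1 was 1.73-fold higher (1.61 to 1.85), Sla 4.03-fold higher (2.87 to 5.77) and Lpl 2.49-fold higher (1.86 to 3.38) in the second run, while Nr2f2 was 2.01-fold lower (1.73 to 2.33). Neurod1 itself stood at 1302 and 1651 CPM, Slc17a6 at 193 and 213 and Nhlh1 at 128 and 136 CPM in the first and second run, and none of the 3 differed by 1.5-fold.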

How the data were processed

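Single cells of embryonic forebrain were captured in droplets with the SureCell kit of Illumina and Bio-Rad, per the labels' protocols. The deposited matrix holds raw counts of UMIs for 14498 genes in 5777 cells, 21609944 UMIs in all. The build mm10 is named in the submitters' processing notes, while the counting tool and any filter on cells are not named there. Values were scaled to a total of 1000000 (CPM) over each group of cells, and ratios carry exact conditional binomial 95% intervals, which cover counting error only. Ratios are given for genes with at least 50 UMIs over both groups. Genes that define a group were left out of its counts, and no p-value was computed because the counts form 1 pool.

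The members and the gene lists were chosen with earlier results of these data known. The lists hold 616 genes in 32 lists, of which 597 were in the matrix. Named genes were the 5 markers, the bHLH list, for each other list the measured genes with the largest ratio in each direction, and the 10 genes of largest ratio in each direction with at least 200 UMIs. Others named were chosen after their values were seen: Dcx, Dll1, Dll3, Mfng and Nrp2 against progenitors, Nrp1 by Eomes, and against later neurons Bcl11b, Chl1, Cxcl12, Dab1, Emx2, Epha4, Fezf2, Grin2b, Lmo4, Mef2c, Nrp1, Nrp2 and Stmn2, as were genes given by level alone. Values of some listed genes are not reported here. Reads that near-identical gene copies share could be split in ways not given here.

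Doublets were kept. An alternative removed the 5.00% of cells with the highest share of simulated doublets among their neighbours, 289 cells and 56 members. Cells were thinned to 1000 UMIs for shares of cells with a gene. Gene positions are those of the GENCODE annotation on mm10, and promoter sequences those of RefSeq on GRCm38.p6. Scripts ran in Python 3.11.15 with numpy 2.4.6, scipy 1.17.1, pandas 2.3.3, scikit-learn 1.9.0 and matplotlib 3.10.9, and the ratio step was tested on simulated counts.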

Additional observations from a re-analysis of the deposited data

How the results depend on the processing

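No paired analysis was possible because all samples form 1 group and their cells cannot be told apart. Of 250 named ratios past 1.5-fold, 1 changed direction over 3010 values under other settings: Hes5 between the tertiles by Neurod1, with a log2 ratio of 0.13 in the first run. Sizes were less stable than directions. Over all 283 named ratios, 602 values under other settings lay outside the main counting interval and 2827 inside it. The other settings use the same pool of cells. Of 92 list medians 77 were at least 0.1 from 0, and 15 of these changed sign under at least 1 setting. The minimum of UMIs per gene was applied again under each setting, so the genes behind a median can differ. The only one of them past 1.5-fold was that of the neuropeptide list by Eomes, at -0.19 in the first run and -0.19 with a gene minimum of 10 UMIs. Over the 8 genes of that list measured in the pool, the first run gave 0.43, with no change of sign. The S phase median against later neurons, 0.27, was -0.06 in the second run and -0.05 without members that carried an interneuron UMI. Over the 16 S phase genes measured in the pool, the second run gave -0.07. The cause of this change was not tested.

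With that minimum of 10 in place of 50 UMIs more genes were measured, and 1540 were higher and 2002 lower than in progenitors, 1584 and 1288 against later neurons, 1305 and 1261 by Eomes, and 1205 and 1544 by tertiles. With a 2-fold limit these numbers were 334 and 475, 351 and 263, 138 and 151, and 141 and 186. At 1.5-fold they had been 979 and 1240, 887 and 723, 583 and 585, and 544 and 633. For the tertiles, groups drawn on a random 50% of UMIs gave 318 higher and 332 lower, and cells of at most 4000 UMIs, a setting chosen after seeing the data, 320 and 289. Members with 5 or more Neurod1 UMIs, also chosen after seeing the data, gave 388 lower.

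The newborn neurons made 9.92% of all 5777 cells when the rule asked for at least 3 Neurod1 UMIs, and 10.3% when it allowed no cycle UMI. They were 367 cells or 6.35% when the rule was applied to cells thinned to 1000 UMIs, 405 or 11.1% in the first run and 361 or 17.0% in the second. Genes such as Tac2 and Neurog1 rest on few cells.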

Other observations

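A few genes were found in small sets of newborn neurons. Cyp26b1, an enzyme that breaks down retinoic acid, had 129 UMIs in 34 cells, and 71.3% of them lay in 10 cells. Its level was 111 CPM in the tertile of newborn neurons with the most Neurod1, 12.05 in the middle and 7.19 in the lower tertile. It stood at 1.32 CPM in intermediate progenitors and 3.23 in later neurons, and at 32.6 and 47.1 CPM in newborn neurons of the 2 runs. Calb2, the calcium-binding protein calretinin, had 93 UMIs in 37 cells, with 77.0, 7.67 and 7.91 CPM in the tertiles. Both genes were chosen after their values were seen.

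A further 6 genes were chosen after their values were seen, from several lists. Zbtb20, a factor of the developing hippocampus, stood at 73.7, 72.9 and 9.24 CPM in progenitors, newborn and later neurons, 7.89-fold higher (5.63 to 11.3) in newborn than in later neurons. The LIM homeobox gene Lhx9, 1 of 8 listed markers of thalamus and cortical hem, stood at 30.5, 58.6 and 8.78 CPM, 6.67-fold higher (4.69 to 9.72), and in the tertiles at 108, 49.3 and 30.2 CPM. Zic1 was 7.34-fold higher (5.42 to 10.1) and Emx2, a patterning factor of the cortex, 4.60-fold higher (3.66 to 5.81). The ligand Wnt5a was 6.55-fold higher (4.31 to 10.3). Nr2f2 (COUP-TFII) stood at 129, 259 and 118 CPM and was uneven between the runs, at 336 and 168 CPM in newborn neurons.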
